A study of Saccharomyces cerevisiae with 18 samples.

Results

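DYN2, SUS1, TAD3, VMA9 and YOS1 are protein-coding genes of budding yeast (Saccharomyces cerevisiae) that are interrupted by 2 introns each and do not encode ribosomal proteins. They were taken by name, as 5 of the 284 intron-containing host genes for which the study counted intron reads, and as 5 of 6596 gene features. Of the 270 hosts that the R64 annotation could be matched to, 260 had 1 intron and 10 had 2. Besides the 5 named genes, the hosts with 2 introns were the ribosomal protein genes RPL7A and RPL7B and 3 further non-ribosomal genes, AML1, HMRA1 and HOP2, so the 5 are not every non-ribosomal host with 2 introns.

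The study placed 1 spliceosome gene of each of 2 strains under the galactose-driven GAL1 promoter and moved cells to medium lacking galactose, then measured poly(A)-selected, strand-specific RNA by sequencing. In the Dib1 strain the promoter drives DIB1, which encodes a protein of the U4/U6.U5 tri-snRNP, and in the Snu114 strain it drives SNU114, which encodes a GTPase of the U5 snRNP. Each strain gave 3 groups of 3 libraries, 18 in all: 6 h in galactose medium (YPGal, the control), 4 h in glucose medium (YPD) and 8 h in glucose medium. The question was how reads over gene regions and over intron regions change once the driven gene is switched off. Both strains are of BY4742 background and carry his3△1, leu2△0, met15△0 and ura3△0, the Dib1 strain with LYS2 and the Snu114 strain with lys2△0. Depletion, the change of sugar and the end of GAL1-driven overexpression cannot be told apart in a comparison with galactose, and from 4 h to 8 h depletion goes with longer time. Nothing in the labels says that the replicates were separate cultures, so p-values may measure technical spread alone.

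Splicing removes an intron in 2 chemical steps, after base pairing of small nuclear RNAs with the 5′ splice site and with the branch site near the intron's end. Most yeast genes have no intron, and most interrupted genes have a single one. At the 5′ splice site and at the branch site a single sequence is found in most introns. A transcript with 2 introns must be spliced more than once. The products of the genes described here work in unrelated places. Dyn2 is a light chain of dynein that is also found in the nuclear pore, and Sus1 is shared by the deubiquitinase module of the SAGA coactivator and by the mRNA export complex TREX-2. Tad3 is a subunit of the tRNA adenosine deaminase that makes inosine at the wobble position, Vma9 is a small membrane subunit of the vacuolar proton pump (V-ATPase), and Yos1 is a membrane protein of endoplasmic reticulum (ER) to Golgi transport that binds Yip1 and Yif1.

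The 5 genes are short and their introns shorter still. In R64, the same assembly as sacCer3, DYN2 (YDR424C) lies on chrIV:1319387-1319841 on the minus strand, SUS1 (YBR111W-A) on chrII:462139-462579 on the plus strand, and TAD3 (YLR316C) on chrXII:765266-766358 on the minus strand. VMA9 (YCL005W-A) lies on chrIII:107023-107417 and YOS1 (YER074W-A) on chrV:307653-308123, both on the plus strand. The coding lengths are 279, 291, 969, 222 and 258 bases in the same order. The 10 introns all interrupt the coding sequence and measure 56 to 111 bases, with a median of 80, against a median of 140 over the 280 introns of the matched hosts. VMA9 opens with an exon of 11 coding bases, DYN2 has exons of 25 and 23 bases before its long last exon, and TAD3 carries 808 of its 969 coding bases in its last exon.

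**Figure D1:**
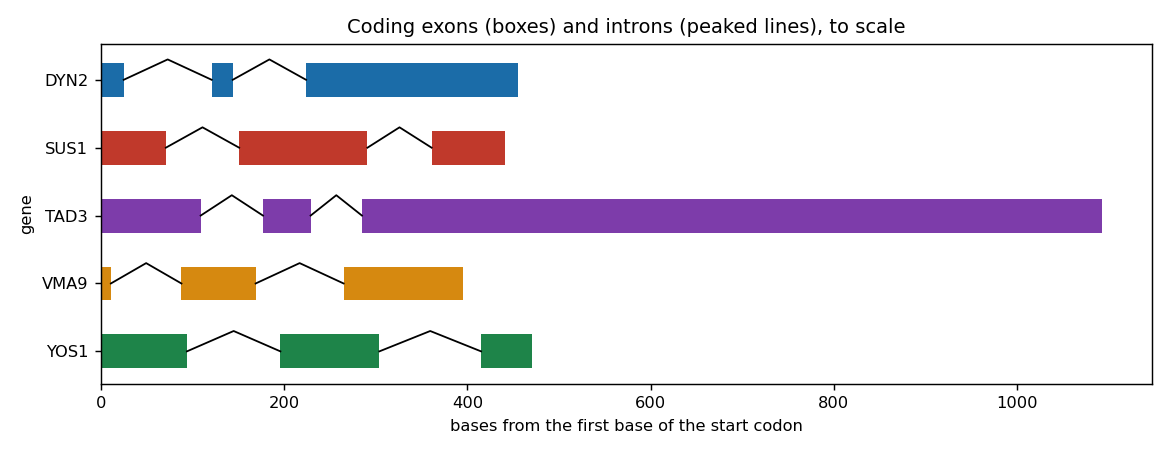
Coding exons (boxes) and introns (peaked lines) of the 5 genes, drawn to scale from the first base of the start codon, with the position in bases on the horizontal axis. The first exon is shortest in VMA9, at 11 bases, TAD3 ends in 1 long exon, and no intron is longer than 111 bases.

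Of the 10 introns, 6 are printed here from the R64 genome, 5′ to 3′ on the strand of the gene, because they show where these introns depart from the usual signals and where a retained intron would end translation. Capitals mark the hexamer at the 5′ splice site, the heptamer around the branch site where a motif was found, and the last 3 bases.
SUS1 intron 1, chrII:462210-462289: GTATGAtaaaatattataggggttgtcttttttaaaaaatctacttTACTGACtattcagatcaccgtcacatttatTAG
SUS1 intron 2, chrII:462430-462499: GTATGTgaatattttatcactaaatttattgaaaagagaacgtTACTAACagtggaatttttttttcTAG
TAD3 intron 1, chrXII:766182-766249: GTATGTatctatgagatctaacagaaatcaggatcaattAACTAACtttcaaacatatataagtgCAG
TAD3 intron 2, chrXII:766074-766129: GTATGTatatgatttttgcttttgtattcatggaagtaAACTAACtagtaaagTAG
VMA9 intron 1, chrIII:107034-107110: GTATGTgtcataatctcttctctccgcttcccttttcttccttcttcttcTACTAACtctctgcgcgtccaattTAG
YOS1 intron 1, chrV:307747-307848: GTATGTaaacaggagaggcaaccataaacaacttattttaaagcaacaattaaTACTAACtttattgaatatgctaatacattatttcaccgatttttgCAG

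Of the 10 introns, 9 start with GTATGT, as do 73.2% of the 280 introns of the matched hosts. SUS1 intron 1 starts with GTATGA, found in 2.86% of them. The branch site heptamer TACTAAC, searched on the strand of the gene, is present in 7 of the 10 and in 82.5% of all. Both TAD3 introns have AACTAAC instead (6.07% of all), and SUS1 intron 1 has TACTGAC (1.79% of all); these variants were searched for after the sequences had been read. Read in frame from the start codon, a transcript that keeps the intron named would meet a stop codon before that intron ends in 8 of the 10 cases, the exceptions being intron 2 of DYN2 and intron 2 of TAD3. VMA9 with intron 1 would stop after 7 codons of a protein of 73, and SUS1 with intron 1 after 29 codons of 96. The sequenced reads are 151 bases long, longer than any of these introns, so a full-length read over one of them also covers exon bases.

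The libraries held 17.07 to 58.62 M (mega) reads over genes and 96655 to 1536697 over introns. DIB1 in the Dib1 strain stood at 117804 to 127214 normalised reads in galactose and at 244 to 283 in glucose, and SNU114 in the Snu114 strain at 159504 to 186566 and at 1130 to 1501. In the strain where the gene was not driven, DIB1 stood at 971 to 1470 and SNU114 at 2429 to 3546 over all libraries. The labels call both strains Mat alpha, but the Dib1 libraries held the a-cell transcripts MFA1 (2859 to 4862 normalised reads) and STE2 (12594 to 22609) and little of the alpha-factor transcript MF(ALPHA)1 (9.60 to 62.9, against 71259 to 106892 in Snu114 libraries). Strain, driven gene and mating type therefore cannot be told apart when the strains are compared. The summed intron reads, in percent of the summed gene reads, went from 0.528 ± 0.014 (SD, n = 3) in galactose to 1.77 ± 0.18 and 2.57 ± 0.047 in the Dib1 strain, and stood at 0.592 ± 0.051, 0.535 ± 0.022 and 1.49 ± 0.15 in the Snu114 strain.

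The main measurement below is the intron ratio, the reads over both introns of a gene as a percent of the reads over the gene in the same library. It needs no scaling between libraries. The study's tables give both introns of a gene as 1 value, so the introns cannot be told apart. It is not stated whether reads over introns were also counted in the gene. None of the 5 genes exceeded 100% in any library, while 2 to 4 of the 261 hosts with at least 20 gene reads on average did so per library, so the ratio is not a share of unspliced molecules. Changes were tested with limma on the log2 ratio over all 261 hosts (260 in the Snu114 strain), with Benjamini-Hochberg adjusted p called at 0.05, and are given as log2 estimate ± SE. Shares of hosts or genes that rose or fell are shares past this threshold in that direction.

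In the Dib1 strain the intron ratio of all 5 genes rose after 4 h in glucose and again stood above galactose after 8 h, with no overlap between galactose and either glucose group. The rise was the general pattern: 83.1% of hosts passed the test upward at 4 h and 88.5% at 8 h. The share of all hosts without overlap was not counted, for these groups or for others named below. The median change of the 5 genes was 1.78 at 4 h and 2.52 at 8 h on the log2 scale, beside 1.60 and 2.52 for all hosts.

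SUS1, the gene with the unusual 5′ splice site, had the highest ratio of the 5 in every library of both strains. In the Dib1 strain it had the smallest rise of the log2 ratio. In galactose its ratio was 34.4%, 36.3% and 46.6% in the 3 Dib1 libraries. It was 77.3%, 74.0% and 78.5% after 4 h and 91.2%, 88.8% and 93.9% after 8 h. By its mean of 39.1% ± 6.6 (SD, n = 3) in galactose, SUS1 ranked 10 of 261 hosts, where the median was 4.90%. The log2 change was 0.98 ± 0.15 at 4 h (limma adjusted p = 0.000102) and 1.23 ± 0.15 at 8 h (adjusted p = 1.1e-05), which placed it 191 and 217 of 261 by size of change. In gene minus intron reads, described below, SUS1 had the largest fall of the 5 at 8 h (6.41-fold), so the order depends on the measure.

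YOS1, the ER to Golgi transport gene, moved from near the others to close to SUS1. Its ratio was 8.82%, 7.95% and 15.5% in galactose and 72.2%, 47.7% and 59.4% after 4 h. After 8 h it was 83.0%, 77.8% and 88.0%, so every 8 h library lay above every 4 h library. The log2 change was 2.52 ± 0.25 at 4 h (limma adjusted p = 5.0e-06) and 3.01 ± 0.25 at 8 h (adjusted p = 5.3e-07). The difference from 4 h to 8 h, 0.49 ± 0.25, did not pass the test (adjusted p = 0.10), and it passed with the replicate number as a block (adjusted p = 0.047).

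VMA9, the V-ATPase subunit gene, had the largest log2 change of the ratio among the 5 at 8 h. From 5.15%, 6.45% and 3.39% in galactose its ratio went to 25.7%, 29.7% and 22.5% after 4 h and to 60.7%, 62.4% and 57.3% after 8 h. That is a rise of the mean from 4.99% ± 1.5 to 60.1% ± 2.6 (SD, n = 3), 12.04-fold. The log2 change was 2.41 ± 0.22 at 4 h (limma adjusted p = 3.4e-06), 3.63 ± 0.22 at 8 h (adjusted p = 7.5e-08) and 1.22 ± 0.22 from 4 h to 8 h (adjusted p = 0.00113). It stood at 44 of 261 hosts by its change at 8 h. By intron reads divided by the size factor of gene reads, YOS1 rose more than VMA9 at 8 h in the Dib1 strain (log2 3.72 ± 0.32 against 2.87 ± 0.29).

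DYN2, the dynein light chain gene, followed the median host. Its ratio was 7.52%, 8.67% and 11.1% in galactose, 23.4%, 28.9% and 29.9% after 4 h, and 53.8%, 48.3% and 53.2% after 8 h. Both log2 changes against galactose, 1.60 ± 0.18 (limma adjusted p = 1.2e-05) and 2.52 ± 0.18 (adjusted p = 2.1e-07), ranked 131 of 261, the middle of the list. From 4 h to 8 h it rose by a further 0.92 ± 0.18 (adjusted p = 0.00171).

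TAD3, the tRNA deaminase gene whose introns both have the AACTAAC branch heptamer, kept the lowest ratio of the 5 in the glucose libraries of the Dib1 strain. It had 5.10%, 4.82% and 3.79% in galactose, 13.4%, 17.4% and 16.7% after 4 h and 27.6%, 23.2% and 20.5% after 8 h. The log2 change was 1.78 ± 0.21 at 4 h (limma adjusted p = 1.5e-05) and 2.36 ± 0.21 at 8 h (adjusted p = 8.5e-07). From 4 h to 8 h it was 0.58 ± 0.21 (adjusted p = 0.0296), a call that was lost without replicate 1 of the 4 h group (adjusted p = 0.061) or without replicate 1 or 2 of the 8 h group (adjusted p = 0.12 and 0.074).

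From 4 h to 8 h, then, DYN2, TAD3 and VMA9 passed the test upward in the Dib1 strain, SUS1 (0.25 ± 0.15, limma adjusted p = 0.15) and YOS1 did not, and 67.8% of all hosts rose. The median of the 5 genes, 0.58, lay below that of all hosts, 0.86. With gene minus intron reads as the denominator all 5 passed, SUS1 with 1.71 (adjusted p = 0.00042) and YOS1 with 1.73 (adjusted p = 0.00428).

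**Figure D2:**
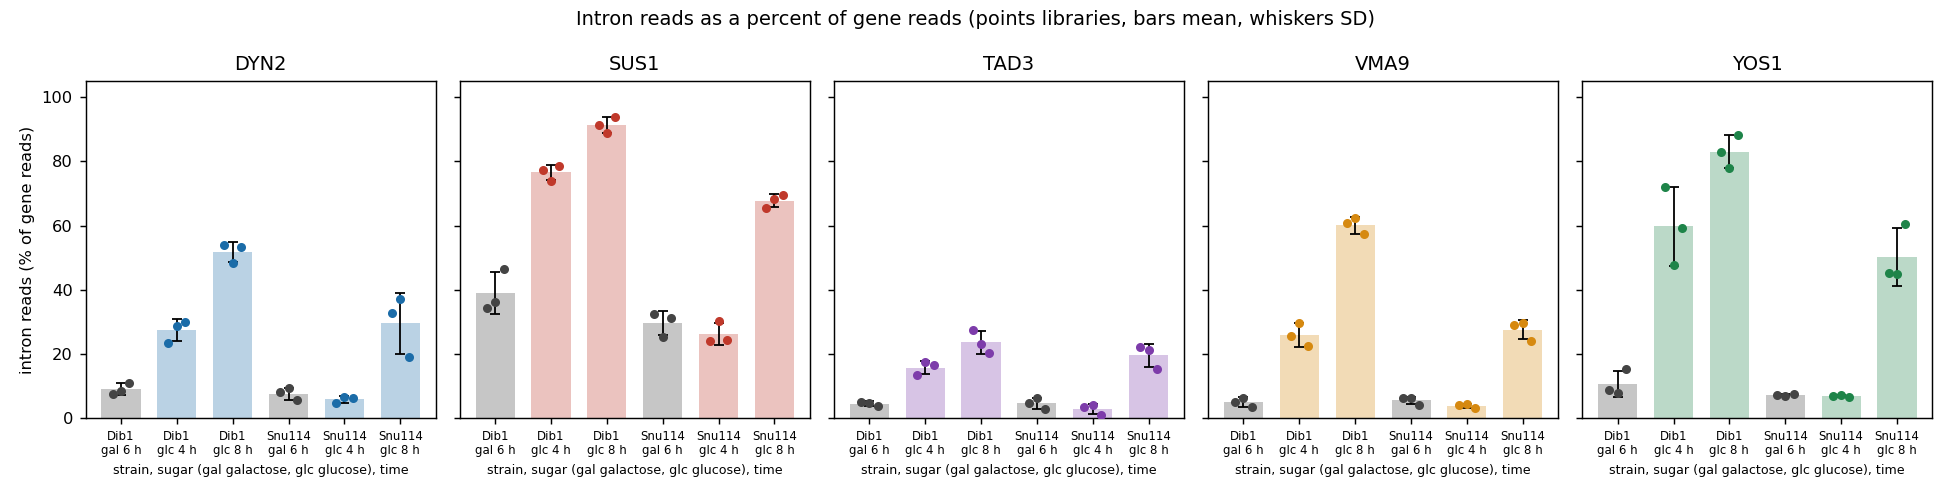
Intron reads as a percent of gene reads for each of the 5 genes in the 6 groups (gal, galactose; glc, glucose). Points are the 3 libraries, bars the mean and whiskers the SD; SUS1 starts at 39.1% and YOS1 at 10.7% in Dib1 galactose, and the Snu114 groups at 4 h stay at the galactose level.

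In the Snu114 strain none of the 5 genes passed the test after 4 h in glucose, and all 5 rose by 8 h. At 4 h the estimates ran from -0.78 ± 0.45 (TAD3) to -0.07 ± 0.16 (YOS1), with a median of -0.36 beside -0.31 for all hosts, and 17.7% of hosts fell while 0.385% rose. VMA9 alone had an unadjusted p under 0.05 (-0.49 ± 0.21, limma adjusted p = 0.12). That adjusted p was 0.027 with the replicate number as a block, a fit that called 76 of all hosts in place of 47, and 0.048 without replicate 3 of the galactose group. For all 5 genes the libraries at 4 h overlapped those in galactose.

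SUS1 had 32.5%, 25.3% and 31.2% in the galactose libraries of the Snu114 strain, 24.1%, 30.2% and 24.3% at 4 h, and 65.4%, 68.3% and 69.5% at 8 h. YOS1 was nearly constant up to 4 h, with 7.24%, 7.08% and 7.62% in galactose and 6.99%, 7.12% and 6.73% at 4 h, and had 45.3%, 44.9% and 60.5% at 8 h. VMA9 had 6.27%, 6.24% and 4.29%, then 4.07%, 4.51% and 3.27%, then 29.1%, 29.6% and 24.1%. For each of these genes every 8 h library lay far above every library of the earlier groups. How many other hosts were separated in this way was not counted.

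DYN2 had 8.17%, 9.30% and 5.63% in galactose, 4.71%, 6.76% and 6.26% at 4 h and 32.9%, 37.1% and 19.0% at 8 h, the third 8 h library being well below the other two. TAD3 had 4.76%, 6.30% and 2.96% in galactose and 22.1%, 21.3% and 15.3% at 8 h. At 4 h it had 3.52%, 4.05% and 1.15%, the last from 6 intron reads beside 521 gene reads (exact 95% binomial interval 0.424% to 2.49%, counting error only). These were the fewest intron reads of any of the 5 genes, and depth limits the TAD3 value at 4 h most.

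The log2 changes at 8 h against galactose in the Snu114 strain were 2.76 ± 0.16 for YOS1 (limma adjusted p = 3.8e-07), 2.31 ± 0.21 for VMA9 (adjusted p = 4.5e-06) and 2.10 ± 0.45 for TAD3 (adjusted p = 0.00122). They were 1.92 ± 0.29 for DYN2 (adjusted p = 0.000103) and 1.20 ± 0.16 for SUS1 (adjusted p = 4.8e-05). Over all hosts 81.2% rose, and the median of the 5 genes was 2.10 beside 1.56 for all hosts. YOS1 ranked 18 of 260 and SUS1 167 of 260. From 4 h to 8 h all 5 rose as well, by 1.38 (SUS1) to 2.88 (TAD3), where 84.2% of hosts rose. These counts of 5 held without any single library.

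**Figure D3:**
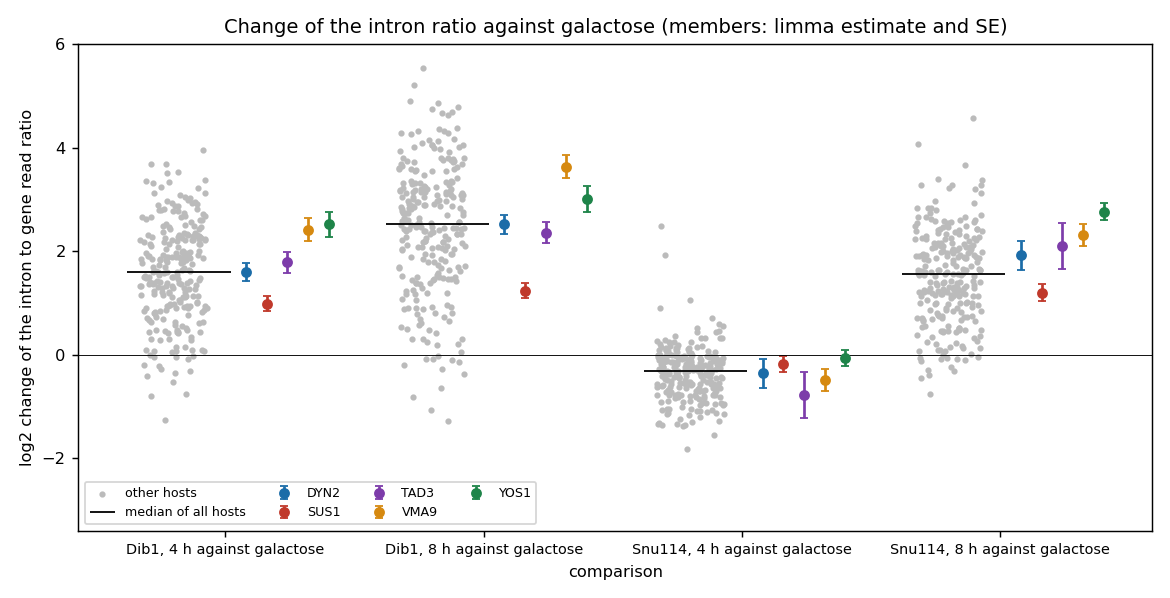
Change of the intron ratio against galactose (log2, vertical axis) in the 4 comparisons (horizontal axis), with every other host as a grey point and a black line at the median of all hosts; coloured points and bars are the limma estimate and SE of the 5 genes. SUS1 lies lowest of the 5 in 3 of the 4 comparisons, and all 5 lie below 0 for Snu114 at 4 h.

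The strains differed most at 4 h. The difference between the changes, Snu114 minus Dib1, was tested in a fit of all 18 libraries. At 4 h it passed the test downward for all 5 genes, as for 81.6% of hosts. The difference was -2.90 ± 0.31 for VMA9 (limma adjusted p = 2.4e-07), -2.59 ± 0.30 for YOS1 (adjusted p = 5.5e-07) and -2.56 ± 0.52 for TAD3 (adjusted p = 0.000216). It was -1.96 ± 0.35 for DYN2 (adjusted p = 6.5e-05) and -1.16 ± 0.21 for SUS1 (adjusted p = 6.6e-05). The median of the 5 was -2.56 beside -1.89 for all hosts.

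At 8 h only VMA9 among the 5 passed, with a difference of -1.32 ± 0.31 (limma adjusted p = 0.00252), while 57.9% of hosts passed, 57.5% downward. The other estimates were -0.60 ± 0.35 (DYN2), -0.26 ± 0.52 (TAD3), -0.24 ± 0.30 (YOS1) and -0.03 ± 0.21 (SUS1). The median of the 5 was -0.26 beside -0.96 for all hosts. With gene minus intron reads as the denominator DYN2, SUS1 and YOS1 passed as well, with -1.12, -1.75 and -1.76 (adjusted p = 0.033, 0.00055 and 0.00779). The absence of a call for SUS1 and YOS1 at 8 h thus depends on the denominator, and TAD3 was not called with either.

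**Figure D4:**
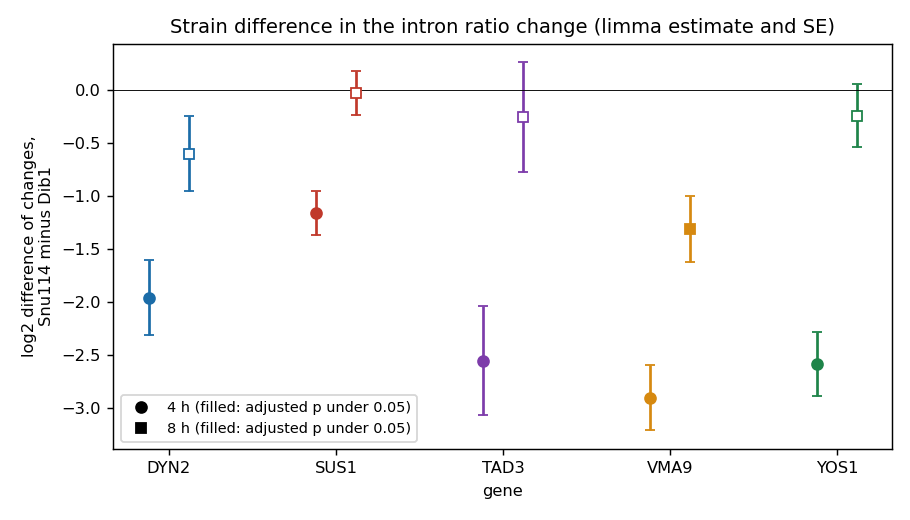
Difference between the strains' log2 changes of the intron ratio against galactose (Snu114 minus Dib1, vertical axis) for the 5 genes, at 4 h (circles) and 8 h (squares), with bars for the SE of limma; filled symbols have an adjusted p under 0.05. All 5 lie below -1 at 4 h, and at 8 h only VMA9 is filled.

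Across the 6 groups the order of the mean ratios was alike but not identical for the 5 genes. Dib1 at 8 h was highest for each, at 23.7% (TAD3) to 91.3% (SUS1), and Snu114 at 4 h lowest for each. The neighbours in that order often overlapped. Dib1 at 4 h overlapped Snu114 at 8 h for DYN2, TAD3, VMA9 and YOS1, whereas for SUS1 Dib1 at 4 h (74.0% to 78.5%) lay wholly above Snu114 at 8 h (65.4% to 69.5%). For TAD3 the 8 h libraries of both strains also overlapped. The galactose groups of both strains overlapped for DYN2, TAD3 and VMA9, but for SUS1 (34.4% to 46.6% against 25.3% to 32.5%) and YOS1 (7.95% to 15.5% against 7.08% to 7.62%) the Dib1 libraries were the higher ones. This difference between the galactose groups was not tested, and the share of all hosts without overlap was not counted.

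Gene length matters when the genes are set beside each other. Per base, with intron reads per intron base divided by gene reads per coding base, the galactose values of the Dib1 strain were 0.759 for SUS1, 0.357 for TAD3, 0.144 for DYN2, 0.130 for YOS1 and 0.0641 for VMA9. The median of 258 hosts was 0.137. On this scale TAD3, whose introns make up a small part of a long gene, had the second highest value of the 5, and VMA9 the lowest (190 of 258). After 8 h in the Dib1 strain the values were 1.86 for TAD3, 1.77 for SUS1, 1.005 for YOS1, 0.821 for DYN2 and 0.772 for VMA9, beside a median of 0.854. Values over 1 show only that the per-base value is no share of molecules. The reads are longer than any of these introns and can also cover exon bases. Dividing by intron bases alone can therefore raise the value for short introns. How far this sets the order of the genes on the per-base scale was not tested.

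Gene levels changed much less than the intron ratio. Levels are normalised reads, the reads over a gene divided by the authors' size factor of the library, and were tested with limma on log2 of the value plus 1 over all genes. Per 1 kb of coding sequence the mean levels in Dib1 galactose were 10494 for VMA9, 8058 for YOS1, 5936 for DYN2, 3543 for SUS1 and 771 for TAD3. In bulk RNA, fewer cells with a transcript and less transcript per cell cannot be told apart.

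In the Dib1 strain none of the 5 gene levels passed the test at 4 h, where 15.2% of genes were called and 5.17% rose; SUS1 and YOS1 had an unadjusted p under 0.05 in opposite directions (-0.53 ± 0.19 and 0.51 ± 0.20, limma adjusted p = 0.086 and 0.12). Without replicate 2 of the 4 h group SUS1 passed (-0.68, adjusted p = 0.034). At 8 h, where 13.7% of genes rose and 15.1% fell (28.9% called), VMA9 and DYN2 had fallen and YOS1 had risen. VMA9 had 2650, 2166 and 2173 normalised reads in galactose and 1538, 1466 and 1139 at 8 h, and fell by 0.76 ± 0.15 (adjusted p = 0.00454). DYN2 had 1598, 1567 and 1803 against 1092, 1005 and 1106, and fell by 0.63 ± 0.13 (adjusted p = 0.00461). For both genes the groups did not overlap, and the share of all genes without overlap was not counted.

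YOS1 had 2202, 2242 and 1793 normalised reads in Dib1 galactose and 3025, 2875 and 4514 at 8 h, a rise of 0.72 ± 0.20 (limma adjusted p = 0.0259). This call was lost without any one of the 3 galactose libraries (adjusted p = 0.055, 0.053 and 0.089) and without the highest library, replicate 3 at 8 h (0.51, adjusted p = 0.082). SUS1 had 983, 1114 and 996 in galactose, 524, 876 and 790 after 4 h and 1201, 1032 and 1194 after 8 h, so its low point was at 4 h. Its rise from 4 h to 8 h, 0.67 ± 0.19 (adjusted p = 0.0393; 8.62% of genes rose and 5.79% fell, 14.4% in all), was the only call among the 5 in that comparison. It did not hold without any one of the galactose or 8 h libraries or replicate 3 at 4 h (adjusted p from 0.055 to 0.14). DYN2 joined it, downward, with the replicate number as a block (-0.40, adjusted p = 0.041).

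TAD3 had 798, 842 and 600 normalised reads in Dib1 galactose, 449, 791 and 595 at 4 h and 803, 776 and 576 at 8 h. The groups overlapped, and no comparison of its gene level passed the test in either strain.

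In the Snu114 strain VMA9 was the only one of the 5 whose gene level was called. None passed at 4 h (3.78% of genes rose and 7.68% fell, 11.5% in all, or 739 genes, against 1497 with the replicate number as a block), with 0 of 5 at an unadjusted p under 0.05. VMA9 had 2381, 2287 and 2796 normalised reads in galactose, 2781, 2632 and 2713 at 4 h and 1668, 1714 and 1739 at 8 h. Relative to galactose the level dropped by 0.54 ± 0.10 after 8 h (limma adjusted p = 0.0117; 3.27% of genes rose and 5.71% fell, 8.98% in all). It also dropped by 0.67 ± 0.10 from 4 h to 8 h (adjusted p = 0.0181; 1.24% of genes rose and 0.667% fell, 1.91% in all). The first call was lost without replicate 1 at 8 h (adjusted p = 0.054), and the second without replicate 1 or 2 of either group (adjusted p from 0.053 to 0.090). YOS1 had 2196, 2697 and 2444 in galactose and 2445, 2664 and 3141 at 8 h (0.17 ± 0.13, adjusted p = 0.52).

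The difference of the gene level changes between the strains passed for none of the 5 at 4 h (0.494% of genes called, 0.340% up and 0.154% down; YOS1 with -0.73 ± 0.25 and VMA9 with 0.45 ± 0.18 had an unadjusted p under 0.05) or at 8 h (6.44% called, 3.20% up and 3.24% down; YOS1 with -0.55 ± 0.25, limma adjusted p = 0.24). A fall of the VMA9 level at 8 h was thus called in both strains, and the strain difference at 8 h, 0.22 ± 0.18, did not pass (adjusted p = 0.57).

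**Figure D5:**
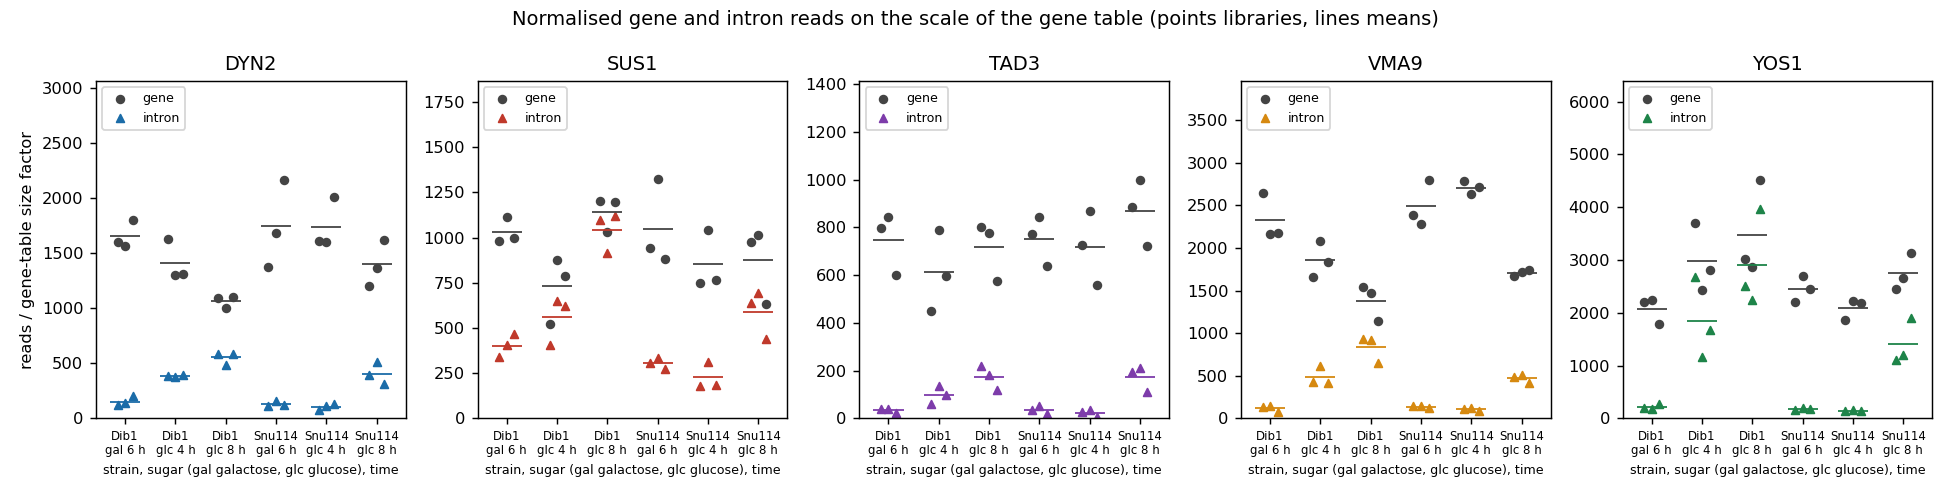
Normalised reads over the gene (grey circles) and over its introns (coloured triangles) for each of the 5 genes in the 6 groups, both on the scale of gene reads; points are libraries and lines the means, with a separate vertical scale for each gene. In Dib1 at 8 h the intron points of SUS1 and YOS1 come close to the gene points, and those of TAD3 stay far below.

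Gene reads minus intron reads fell in 4 of the 5 genes by much more than the gene level, as a description without a test. It is not stated whether gene reads include intron reads. The difference therefore need not count spliced transcripts, and by construction it falls as the ratio rises at a given gene level. In the Dib1 strain it was 629 ± 90.1 normalised reads for SUS1 in galactose (SD, n = 3), 172 ± 54.4 at 4 h and 98.0 ± 22.1 at 8 h, a mean 6.41-fold lower at 8 h. The VMA9 value went from 2213 ± 263 to 547 ± 58.7 at 8 h, 4.05-fold lower. YOS1, whose gene level was higher at 8 h, had 1862 ± 302 in galactose and 564 ± 64.6 at 8 h, 3.30-fold lower, and DYN2 had 1504 ± 88.5 and 514 ± 8.9, 2.93-fold lower. TAD3 had 712 ± 119 and 545 ± 75.8, 1.31-fold lower, with overlapping libraries. In the Snu114 strain the means at 8 h were lower by 2.62-fold for SUS1, 1.90-fold for VMA9, 1.68-fold for YOS1 and 1.62-fold for DYN2, and TAD3 stood at 97.2% of galactose, with overlapping libraries for DYN2 and TAD3.

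The intron level itself, with intron reads divided by the same size factor as gene reads, rose as well. For YOS1 in the Dib1 strain it averaged 217 ± 53.1 in galactose, 1835 ± 769 after 4 h in glucose and 2907 ± 934 after 8 h, a log2 change at 8 h of 3.72 ± 0.32 (limma adjusted p = 2.6e-07). SUS1 was the exception at 4 h in that strain: its intron level was 0.45 ± 0.23 above galactose (adjusted p = 0.094) while its gene level was 0.53 below, and by 8 h the intron level had risen by 1.38 ± 0.23 (adjusted p = 0.000105). At 8 h against galactose all 5 intron levels passed upward in both strains. The scale decides this: over all hosts the median intron level change at 8 h was 2.21 in Dib1 and 1.29 in Snu114 with gene size factors, and 0.07 and 0.09 with the authors' own size factors for introns. On the authors' scale SUS1 fell, by 0.85 at 8 h in the Dib1 strain (adjusted p = 0.00485), and only YOS1 was called upward there, so the direction depends on the scale chosen.

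Whether the 5 genes form a group in how their ratio changed was not tested, and no typical distance between hosts was computed. As a description over the 4 changes against galactose, the smallest root mean square difference between any 2 of the 5 was 0.26 log2 units (DYN2 and TAD3), then 0.44 (VMA9 and YOS1), and the largest was 1.51 (SUS1 and VMA9). Over the 260 hosts tested in both strains, none of the 5 had another of them among its 2 nearest. VMA9 was nearest to SNC1, which encodes a vesicle SNARE (0.062), and to CNB1, which encodes the calcineurin regulatory subunit (0.17). DYN2 was nearest to EPT1, an ethanolamine phosphotransferase gene (0.095), and ERD2, the HDEL receptor gene (0.15). SUS1 was nearest to YCL002C (0.12) and YPL109C (0.16), TAD3 to MCM21, a kinetochore gene (0.21), and HRB1, an mRNA-binding protein gene (0.24), and YOS1 to GLC7, the type 1 phosphatase gene (0.20), and STO1, the large cap-binding subunit gene (0.23). The changes compared here share control libraries within each strain.

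The ribosomal protein pair with 2 introns, RPL7A and RPL7B, rose in intron ratio by unequal amounts at 8 h in the Dib1 strain. RPL7A rose from 3.25% ± 0.38 to 56.8% ± 4.0 (4.13 ± 0.20 on the log2 scale, limma adjusted p = 1.7e-08), and RPL7B from 16.2% ± 1.2 to 45.2% ± 3.3 (1.48 ± 0.30, adjusted p = 0.00067). The RPL7B gene level fell by 1.60 ± 0.11 (limma adjusted p = 8.6e-06), while that of RPL7A did not pass. With gene size factors the RPL7B intron level did not pass (-0.12 ± 0.34, adjusted p = 0.74), and that of RPL7A rose (4.06 ± 0.24, adjusted p = 2.0e-08). The RPL7B ratio did not pass at 4 h in Dib1 (0.42 ± 0.30, adjusted p = 0.22) or at 8 h in Snu114 (0.27 ± 0.23, adjusted p = 0.31). RPL7A rose in both, by 2.90 ± 0.20 and 2.57 ± 0.21. The 2 copies are near-identical in coding sequence, and reads could be split between them in ways the sources do not state. The further non-ribosomal genes, named after the annotation had been read, rose too. AML1 went from 2.32% ± 0.47 in Dib1 galactose to 19.8% ± 3.8 and 46.2% ± 2.6, and in the Snu114 strain from 1.57% ± 0.29 to 1.47% ± 0.33 and 15.5% ± 3.8. HMRA1, with at most 1 read in any Snu114 library, went from 6.33% ± 0.99 to 30.7% ± 7.1 and 53.8% ± 4.4, and HOP2, with 13 to 198 gene reads per library, from 16.4% ± 5.5 to 49.3% ± 19 and 72.5% ± 4.8 in the Dib1 strain.

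Most calls among the partners of each gene product fell in the Dib1 strain at 8 h. Partner here means a gene listed for the same complex, pathway or type of enzyme, and many of them need not bind the product. Of 64 partner genes in 8 lists 13 rose and 3 fell in gene level there (25.0% called), beside 28.9% of all genes. At 4 h in that strain 4.69% were called beside 15.2% of all genes, and from 4 h to 8 h 9.38% beside 14.4%. In each Snu114 comparison 1 of the 64 was called (1.56%), beside 11.5% of all genes at 4 h, 8.98% at 8 h and 1.91% from 4 h to 8 h. Of 14 dynein and dynactin genes, partners of Dyn2, 1 rose and 1 fell at 8 h in that strain: NUM1, the cortical anchor of dynein, by 1.43 ± 0.17 (limma adjusted p = 0.00027), and DYN3, the light intermediate chain, by -0.57 ± 0.14 (adjusted p = 0.0135). DYN3 was also the 1 that fell at 4 h (-0.48 ± 0.14, adjusted p = 0.0489), and NUM1 the 1 that rose from 4 h to 8 h. Of the 3 genes of the Nup82 nuclear pore subcomplex, which binds Dyn2, 2 rose at 8 h, NSP1 (0.64 ± 0.10, adjusted p = 0.00141) and NUP159 (0.38 ± 0.088, adjusted p = 0.00918), and both also rose from 4 h to 8 h. The median changes at 8 h were 0.11 and 0.38, beside 0.01 for all genes.

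Among partners of Sus1, 1 of 3 SAGA deubiquitinase genes rose at 8 h in the Dib1 strain, SGF73 by 0.41 ± 0.11 (limma adjusted p = 0.0184), and 2 of 4 TREX-2 genes, SEM1 by 1.06 ± 0.32 (adjusted p = 0.0327) and SAC3, the scaffold, by 0.31 ± 0.092 (adjusted p = 0.032). TAD2, the catalytic partner of Tad3, rose by 0.46 ± 0.15 (limma adjusted p = 0.0396). TAD1, listed as a tRNA adenosine deaminase gene and not as a subunit with Tad3, did not pass. Of 14 V-ATPase subunit genes 1 rose, STV1, the Golgi form of subunit a (0.52 ± 0.11, adjusted p = 0.00518), against the fall of VMA9, and the median of the 14 was 0.02. VMA7 fell from 4 h to 8 h (-0.40 ± 0.10, adjusted p = 0.0273), and of 5 assembly factor genes PKR1 rose at 8 h (0.44 ± 0.11, adjusted p = 0.0125). None of these lists had a call in the Snu114 strain.

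Of 19 genes of the Yip1 complex and ER to Golgi transport, listed for Yos1, 4 rose and 2 fell at 8 h in the Dib1 strain. Their median was 0.22, and 13.7% of all genes rose and 15.1% fell. Among the genes whose products bind Yos1, YIF1 rose (0.62 ± 0.13, limma adjusted p = 0.00553) and YIP1 did not pass (0.21 ± 0.14, adjusted p = 0.33). The largest rises were SEC16, a scaffold of ER exit sites (1.18 ± 0.17, limma adjusted p = 0.000866), and USO1, a vesicle tether (0.64 ± 0.19, adjusted p = 0.0328). Those that fell were SAR1, the GTPase of the COPII coat (-1.34 ± 0.28, adjusted p = 0.00553), and BOS1, a SNARE gene (-0.87 ± 0.17, adjusted p = 0.00353), which were also the 2 that fell at 4 h (-0.93 ± 0.28 and -0.61 ± 0.17, adjusted p = 0.049997 and 0.0352). From 4 h to 8 h SEC16 rose and SEC22, another SNARE gene, fell (-0.40 ± 0.12, adjusted p = 0.0449). In the Snu114 strain SEC24 rose at 4 h (0.45 ± 0.12, adjusted p = 0.042) and ERV41 fell at 8 h, both against galactose (-0.58 ± 0.11, adjusted p = 0.011) and against 4 h (-0.59 ± 0.11, adjusted p = 0.0299).

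Of all these partner genes 6 are themselves hosts of an intron: NSP1, VMA10, BET1, BOS1, ERV41 and SAR1. All 6 rose in intron ratio at 4 h and at 8 h in the Dib1 strain and at 8 h in the Snu114 strain, and none passed at 4 h in the Snu114 strain. Of all hosts 83.1%, 88.5% and 81.2% rose in the first 3 comparisons and 18.1% were called in the last. At 8 h in the Dib1 strain the changes ran from 1.28 ± 0.22 (BOS1) to 4.27 ± 0.21 (NSP1). VMA10, the other intron host among the V-ATPase genes, rose by 2.25 ± 0.22 at 8 h in Dib1 and by 0.91 ± 0.12 at 8 h in Snu114 (limma adjusted p = 1.7e-06 and 5.5e-05), beside 3.63 and 2.31 for VMA9.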

How the data were processed

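The authors deposited a gene table and an intron table for each strain, holding a signal per library: reads divided by 1 size factor per library and table, headed as normalised counts per the file headers. Per the submitters' processing notes, Trimmomatic, STAR, HTSeq and DESeq2 were used with sacCer3; versions, counting mode and strand setting are not given in the sources used here. In each library 100% of values were whole multiples of 1 step (tolerance 0.001), which gave back the reads. Intron reads were set against gene reads of the same library.

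Ratios, with 0.5 added to both reads, were tested where hosts averaged at least 20 gene reads, and gene levels as log2(value + 1) for genes with a read, both with limma 3.58.1 (trend, 1 fit of 9 libraries per strain, all 18 for strain differences) in R 4.3.3. Depth limits the precision of low intron counts, and exact binomial intervals cover counting error only. edgeR 4.0.16 and DESeq2 1.42.0 on recovered reads, other pseudocounts, filters, scalings and denominators and left-out libraries were alternatives. The scripts were tested on simulated data. Same-numbered libraries deviated together in 9 of 9 pairs of libraries in the Dib1 strain (r from 0.105 to 0.612 for ratios, 0.120 to 0.637 for gene levels) and in the 3 pairs of 4 h with galactose in the Snu114 strain (0.318 to 0.561 and 0.326 to 0.504), so a replicate block is given there where it changes a call.

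The genes, comparison lists and tests were chosen with earlier results of these data known. Named genes are the 5, RPL7A and RPL7B, the driven genes, the 2 most alike hosts of each, up to 2 called genes each way per list and comparison, and list genes with introns. YIF1 and YIP1 were added because their products bind Yos1. Sequences and coordinates were read from the RefSeq R64 genome and annotation.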

Additional observations from a re-analysis of the deposited data

Results flagged for a closer look

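For all 5 genes the change of the intron ratio at 4 h differed between the strains, as for 81.6% of hosts. The log2 difference of the changes against galactose, Snu114 minus Dib1, was -2.90 for VMA9, -2.59 for YOS1, -2.56 for TAD3, -1.96 for DYN2 and -1.16 for SUS1, with adjusted p from 2.4e-07 (VMA9) to 0.000216 (TAD3) by limma. All 3 Dib1 libraries at 4 h lay above all 3 galactose libraries for each gene, and in the Snu114 strain these groups overlapped. The share of all hosts with such a separation was not counted. At 8 h the difference passed for VMA9 alone among the 5, with -1.32 (limma adjusted p = 0.00252), while 57.9% of hosts passed. Dib1 and Snu114 libraries also differ in mating type transcripts, and the part of that in these differences was not tested.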

How the results depend on the processing

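The counts of the 5 genes called in intron ratio at 4 h and 8 h in Dib1, at 8 h in Snu114, and in the strain difference at 4 h moved most with the authors' intron scale. With the intron level on the gene scale, SUS1 was not called at 4 h in Dib1 (limma adjusted p = 0.094). On the authors' scale, 1 rose and 1 fell at 4 h and at 8 h in Dib1 and in the strain difference at 4 h (2 called in each), 1 rose at 8 h against galactose and 3 from 4 h to 8 h in Snu114, and 0 were called from 4 h to 8 h in Dib1 and for the strain difference at 8 h. That scale centres the introns near 0, and the members reversed by it were DYN2 (-0.19), SUS1 (-1.10) and TAD3 (-0.070) at 4 h and DYN2 (-0.34) and SUS1 (-0.85) at 8 h in Dib1, DYN2 from 4 h to 8 h in Dib1 (-0.16), SUS1 at 8 h (-0.39) and from 4 h to 8 h (-0.16) in Snu114, and DYN2 (0.069) and SUS1 (0.86) in the strain difference at 4 h. With gene minus intron reads as denominator, chosen after seeing the data, 5 were called from 4 h to 8 h in Dib1 and 4 in the strain difference at 8 h. For gene levels from 4 h to 8 h in Dib1, DESeq2 called 3 and a fit of all 18 libraries 2, against 1. The cause was not tested.

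Leaving out 1 library at a time kept the ratio counts at 5 at 4 h and 8 h in Dib1, at 8 h in Snu114 in both comparisons and in the strain difference at 4 h, and at 1 in that at 8 h. The ratio count ran from 2 to 4 from 4 h to 8 h in Dib1 and from 0 to 1 at 4 h in Snu114. Gene level counts ran from 0 to 1 at 4 h, 2 to 3 at 8 h and 0 to 2 from 4 h to 8 h in Dib1, and from 0 to 1 at 8 h in both Snu114 comparisons.

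With the replicate block the ratio count was 1 against 0 at 4 h in Snu114 (VMA9) and 4 against 3 from 4 h to 8 h in Dib1 (YOS1 added), and the gene level counts from 4 h to 8 h were 2 against 1 in Dib1 (DYN2 added) and 2 against 1 in Snu114 (YOS1 added, adjusted p = 0.048 by limma). The block changed no other count of the 5 genes. In Snu114 7 of 9 pairs of same-numbered libraries had r over 0.1, and both others (lowest -0.161) set replicate 1 at 8 h against the earlier groups. In comparisons with 8 h, replicate 1 thus shared only a number with the earlier libraries. Replicates 2 and 3 at 8 h deviated together with theirs (r from 0.289 to 0.616).

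Over all genes, DESeq2 called 1489, 1419, 1246, 991, 437, 158 and 698 where limma called 979 and 929 (Dib1 at 4 h, and 8 h against 4 h), 739, 579 and 123 (Snu114 at 4 h, at 8 h, and 8 h against 4 h), 32 and 417 (strain difference at 4 h and 8 h), and the replicate block 1479 (Dib1 at 4 h), 1497, 1112 and 385 (Snu114) and 155 and 799 (strain difference). Without 1 library the counts fell as low as 423, 347, 326, 307, 6, 11 and 201 in the same order, to 1221 against 1860 at 8 h in Dib1, and rose to 1196 at 4 h in Snu114. The fit of all 18 libraries called 294 from 4 h to 8 h in Snu114. Of hosts, 141, 5, 4, 120, 134, 121 and 3 were called on the authors' scale against 217 and 177 (Dib1 at 4 h, and 8 h against 4 h), 47, 211 and 219 (Snu114) and 213 and 151 (strain difference). The intron level on the gene scale called 5 at 4 h in Snu114 and 88 in the strain difference at 8 h. At 4 h in Snu114, gene minus intron reads called 26, the block 76 and fits without 1 library 18 to 89.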
